A study of Homo sapiens with 9 samples.

Results

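Chemokines and chemokine receptors were followed across 3 levels of the transcription factor MYC in P493-6, an established line of human B lymphocytes. The members are 4 ligands (CCL20, CCL22, CCL17 and XCL1), 5 receptors that signal (CCR2, CCR6, CCR7, CXCR5 and CXCR4) and the atypical receptor ACKR3. They were named as members by symbol, and every probe set with that symbol alone in the platform annotation was taken. This gave 10 of the 19775 named genes and 17 of the 41097 probe sets with 1 symbol. RNA was measured on 9 single-colour Affymetrix arrays, with 4 labelled high Myc, 3 labelled low Myc and 2 labelled no Myc. All 9 arrays are of P493-6 cells, and the labels give no agent, dose, time or culture for any group. As background, P493-6 holds a MYC transgene repressed by tetracycline, and its EBNA2, a viral transcription factor, works only with estrogen. It is 1 line immortalised with Epstein-Barr virus, so the values speak for that line only. Nothing in the labels says that replicates are separate cultures, so the p-values cover no more than array-to-array spread, which may be technical.

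Chemokines are small secreted proteins that guide migrating leukocytes, and most act through receptors that couple to inhibitory G proteins. In B cells, CXCR5 draws cells to the follicle, CCR7 to the T zone, and CXCR4 to the bone marrow and the dark zone of germinal centres, while CCR6 responds to CCL20. Activated and virus-transformed B cells are known to secrete CCL17 and CCL22, ligands of CCR4 on T cells. ACKR3 binds CXCL12 without coupling to G proteins and removes it. XCL1 is known mainly as a product of T and NK cells and acts on XCR1, and CCR2 is best known on monocytes.

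Promoters are shown for 3 called members with different patterns, each before an annotated start. Where the RNA starts in these cells was not measured. CCL20 was highest in low Myc, CCL22 was bright throughout and lowest in high Myc, and CCR2 was highest in no Myc. RefSeq promoter windows (GRCh38.p14) were found for 6 of the 10 members (CCL20, CCL22, CCR2, CCR6, CXCR4 and CXCR5). Each sequence below holds the 250 bases before the start, 5′ to 3′ on the gene's strand, which is the plus strand for all 3. They lie at chr2:227813592-227813841 for CCL20, chr16:57358533-57358782 for CCL22 and chr3:46353861-46354110 for CCR2. The CCL22 window lies inside the annotated gene (chr16:57357909-57366189), before a start within it. Capitals mark matches on either strand to 3 motifs, the MYC E-box CACGTG, the core TGGGAA bound by RBPJ (the DNA-binding partner of EBNA2 and Notch), and the NF-kappaB consensus.
CCL20: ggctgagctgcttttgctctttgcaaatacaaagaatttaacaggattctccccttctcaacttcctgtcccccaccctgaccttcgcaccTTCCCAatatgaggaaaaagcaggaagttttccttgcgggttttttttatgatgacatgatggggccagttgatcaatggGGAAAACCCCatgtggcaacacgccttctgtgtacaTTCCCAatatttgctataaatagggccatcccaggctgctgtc
CCL22: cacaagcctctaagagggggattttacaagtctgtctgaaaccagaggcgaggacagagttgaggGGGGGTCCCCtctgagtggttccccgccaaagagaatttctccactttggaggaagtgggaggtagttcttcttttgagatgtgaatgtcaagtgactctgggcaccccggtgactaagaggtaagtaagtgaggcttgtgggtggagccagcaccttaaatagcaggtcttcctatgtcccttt
CCR2: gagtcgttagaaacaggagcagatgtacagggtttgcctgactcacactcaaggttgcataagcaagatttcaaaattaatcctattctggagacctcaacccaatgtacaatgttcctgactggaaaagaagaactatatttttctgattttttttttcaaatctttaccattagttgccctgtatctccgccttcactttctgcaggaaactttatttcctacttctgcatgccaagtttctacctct
The CCL20 window held 2 matches to the RBPJ core, both on the minus strand and so printed as TTCCCA, and 1 match to the NF-kappaB consensus. The CCL22 window held 1 NF-kappaB match, and the CCR2 window held no match to any of the 3. Among the members not printed, CXCR4, called in no comparison, also had RBPJ core matches, in separate windows. The windows of CCR6 and CXCR5 held no match. Over all 35116 windows of this length, 20.8% held an RBPJ core, 5.21% an NF-kappaB match and 6.34% an E-box. These are matches of letters, and no binding was measured.

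The deposited values are RMA intensities on a linear scale, and log2 of them was tested. In what follows, a value after ± is the SD for a group mean and the SE for a difference, and groups have n = 4 (high Myc), n = 3 (low Myc) and n = 2 (no Myc). A gene was called when its adjusted p was under 0.05 in limma (Benjamini-Hochberg over all 19775 genes, two-sided). Array medians were 75.3 to 80.3 and lower quartiles 33.3 to 35.2, so an intensity in the thirties or below is near the lower quartile. MYC read 11326 to 15404 in high Myc, 1443 to 2526 in low Myc, 2803 on the library labelled no Myc replicate 1 and 416 on no Myc replicate 2. The library labelled no Myc replicate 1 thus goes against its label, and every direction drawn from the no Myc group below includes it. MYC was called in high against no Myc (3.57 ± 0.60, log2) and high against low Myc (2.70 ± 0.53), but not in low against no Myc (0.87 ± 0.64, adjusted p = 0.484). Once the library labelled no Myc replicate 1 was left out, MYC was 30.9-fold higher in high than in no Myc, against 11.9-fold with all arrays, and the low against no difference was called (2.25, adjusted p = 0.00842). The high against low call was lost in 5 of the 9 fits that left out an array, namely without high Myc replicates 1, 3 or 4 or low Myc replicates 1 or 3 (adjusted p up to 0.0988), and also with every probe set fitted or with the replicate number as a block (0.119).

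High Myc replicate 2 stood apart from its group among the members. Its intensity lay outside the range of the other 3 high Myc arrays for 7 of the 10 members, and for 8 its log2 value was nearer to the low Myc mean than to the mean of those 3 arrays. Its MYC intensity of 11326 was nonetheless that of the high Myc group. Across all genes it correlated with the other high Myc arrays at 0.977 to 0.986 and with the low Myc arrays at 0.974 to 0.982, while the other 3 high Myc arrays reached 0.988 to 0.992 among themselves and 0.958 to 0.974 with low Myc. Results are therefore given with it and without it. As it was singled out partly by these members' values, p-values from fits without it are not independent of that choice. Where it stood far from the other 3, leaving it out narrows the spread by construction. The counts of members above were not taken over all genes, and any array of a small group is often its lowest or highest.

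Against no Myc, high Myc arrays had 4 members called lower and none higher, where 23.2% of all genes were called (9.0% lower and 14.2% higher). These were the receptors CCR2 and CCR6 and the ligands CCL17 and CCL22. Low Myc arrays had 3 members higher (CCL20, XCL1 and ACKR3) against a background of 11.3%, and 3 lower (CCR2, CCR6 and CCL17) against 8.55%, out of 19.8% called in all. Between high and low Myc, 2 members were lower in high Myc (CCL20 and XCL1), against 1.27% of all genes, and none higher, against 2.33%. The median log2 difference of the 10 members was -0.94 in high against no Myc, 0.28 in low against no Myc and -0.75 in high against low Myc, and that of all genes was -0.01, -0.00 and 0.00. Both comparisons with no Myc use the same 2 no Myc arrays. The members were chosen with earlier results of these data known, so their counts and medians are not independent of these arrays. Of the 49 other ligands and receptors measured, 4.08%, 6.12% and 2.04% were called in the 3 comparisons.

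**Figure D1:**
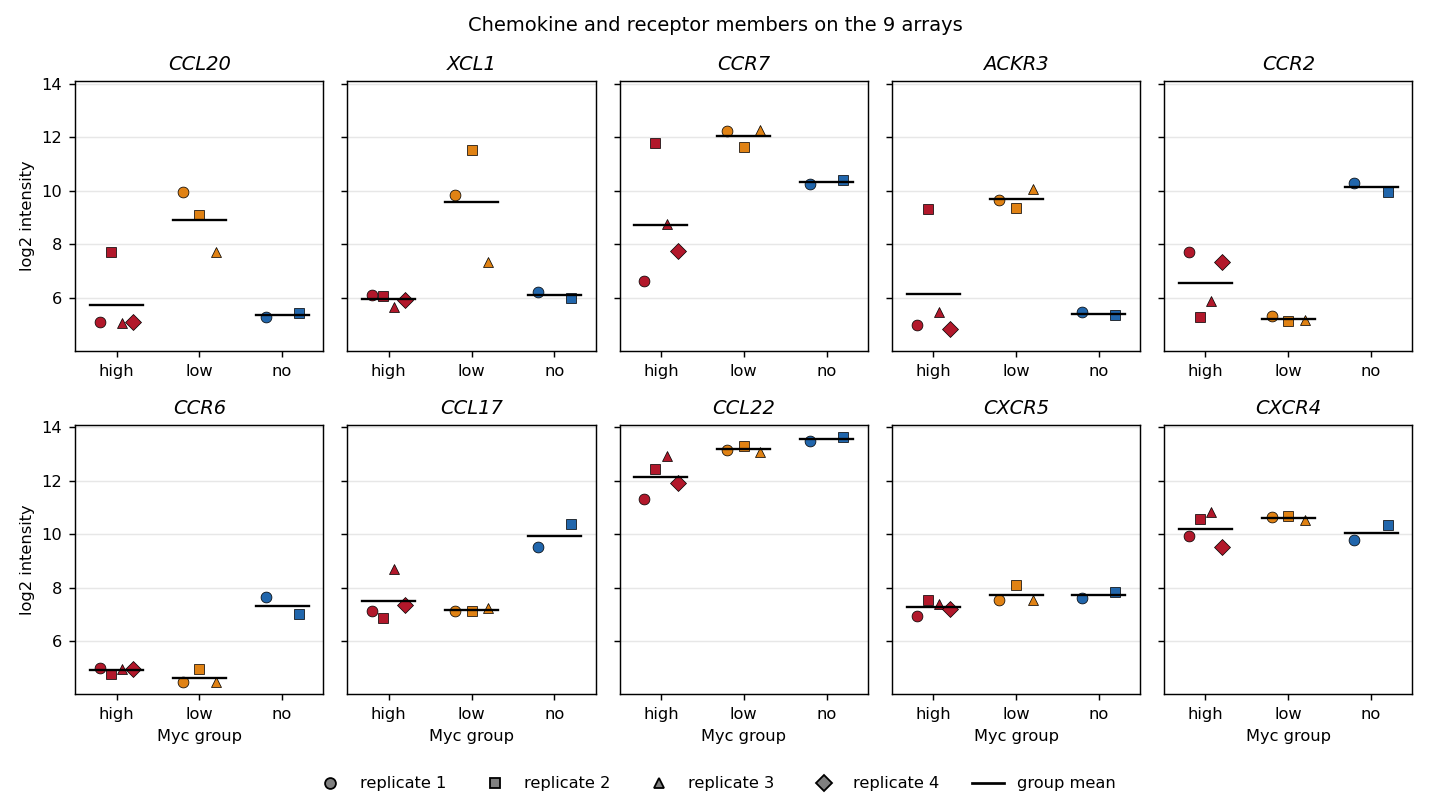
Log2 intensity (vertical axis) of each of the 10 members on the 9 arrays, in a panel per gene with the high, low and no Myc groups from left to right. Points are arrays, shaped by replicate, and lines are group means. CCL20, XCL1, CCR7 and ACKR3 have their highest means in low Myc, and CCR2, CCR6 and CCL17 in no Myc.

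Among the ligands, CCL20, which draws CCR6-bearing lymphocytes and dendritic cells, was high on low Myc arrays. It read 34.2, 208, 32.8 and 34.3 on high Myc arrays 1 to 4, 999.9, 542 and 210.3 on the low Myc arrays, and 39.2 and 43.1 on the no Myc arrays. All 3 low Myc arrays exceeded every other array, although high Myc replicate 2, at 208, nearly reached low Myc replicate 3. Mean log2 was 5.73 ± 1.31 in high, 8.92 ± 1.13 in low and 5.36 ± 0.10 in no Myc. CCL20 was 11.8-fold higher in low than in no Myc (3.56 ± 0.86, adjusted p = 0.018) and 9.12-fold lower in high than in low Myc (-3.19 ± 0.72, adjusted p = 0.0478). Most high and no Myc readings behind these folds lie near the lower quartile of the arrays, so the folds are not exact. The order was low Myc, then high and no Myc, and high and no Myc did not differ beyond their spread (0.37, 95% interval -1.47 to 2.21). Without high Myc replicate 2 the high against low difference was -3.84 (adjusted p = 0.00261), and the high against no difference turned to -0.28 (adjusted p = 0.86). The call in low against no Myc was lost in fits leaving out low Myc replicate 1 (adjusted p = 0.0582), the library labelled no Myc replicate 1 (0.114) or no Myc replicate 2 (0.0847). In high against low Myc the call was lost in 7 of the 9 fits that left out an array (adjusted p 0.0845 to 0.166), and it held with high Myc replicate 2 or low Myc replicate 3 left out.

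XCL1 rose in low Myc too, with a wide spread within that group. The probe set read 69.1, 66.2, 50.4 and 60.8 on the high Myc arrays, 909.8, 2942 and 160.3 on the low Myc arrays, and 74.1 and 63.1 on the no Myc arrays. Every low Myc array exceeded every other array, and low Myc replicate 2 was far above the other 2 of its group. XCL1 was 11.03-fold higher in low than in no Myc (3.46 ± 0.93, adjusted p = 0.0286) and 12.3-fold lower in high than in low Myc (-3.62 ± 0.78, adjusted p = 0.0408). High and no Myc did not differ beyond their spread (-0.16, 95% interval -2.16 to 1.83). XCL1 and its near-identical paralog XCL2 share sequence, and this probe set is of a kind that can cross-hybridise, so the level may belong to either gene. A second XCL1 probe set read 24.1 to 29.5 in high, 26.0 to 86.4 in low and 26.6 to 38.8 in no Myc and was called in no comparison (adjusted p = 0.58 in low against no Myc and 0.38 in high against low Myc). The low against no call was lost without low Myc replicate 1 (adjusted p = 0.0816), the library labelled no Myc replicate 1 (0.134) or no Myc replicate 2 (0.135). The high against low call was lost in 6 of 9 such fits (0.0753 to 0.137) and held without high Myc replicate 2, low Myc replicate 2 or low Myc replicate 3. With high Myc replicate 2 and the library labelled no Myc replicate 1 both out, both calls were lost (adjusted p = 0.159 in low against no Myc and 0.0849 in high against low Myc). With the median of the XCL1 probe sets the difference was 1.99 in low against no Myc (adjusted p = 0.0759), and with only the groups compared in the fit both calls were lost too (0.115 and 0.0753).

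CCL17, a ligand of CCR4, fell in both groups against no Myc. It read 141, 116, 412 and 161 on the high Myc arrays, 139, 140.5 and 149 on the low Myc arrays, and 725 and 1321 on the no Myc arrays. High Myc replicate 3 was the highest of its group, and no high or low Myc array reached either no Myc array. CCL17 was 5.38-fold lower in high than in no Myc (-2.43 ± 0.45, adjusted p = 0.00412) and 6.85-fold lower in low than in no Myc (-2.78 ± 0.48, adjusted p = 0.00378). High and low Myc did not differ beyond their spread (0.35, 95% interval -0.56 to 1.25). With the library labelled no Myc replicate 1 left out, the differences were -2.86 (adjusted p = 0.0169) and -3.21 (0.0191). Without no Myc replicate 2 the high against no call was lost (-1.996, adjusted p = 0.052).

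CCL22, the other ligand of CCR4, was bright on all arrays and lowest in high Myc. It read 2558, 5539.6, 7824 and 3827 on the high Myc arrays, 9011, 10162 and 8727 on the low Myc arrays, and 11473 and 12777 on the no Myc arrays. The 3 groups did not overlap. CCL22 was 2.67-fold lower in high than in no Myc (-1.42 ± 0.36, adjusted p = 0.0199). It differed by -1.03 ± 0.32 on the log2 scale in high against low Myc, which did not pass the test (adjusted p = 0.124), and low and no Myc did not differ beyond their spread (-0.38, 95% interval -1.25 to 0.48). The high against no call was lost without high Myc replicate 4 (-1.33, adjusted p = 0.0503), the library labelled no Myc replicate 1 (-1.49, 0.0983) or no Myc replicate 2 (-1.34, 0.121), and it held without high Myc replicate 2 (-1.51, 0.0242). With that array and the library labelled no Myc replicate 1 both out it was lost (-1.59, 0.109). The known receptor of both ligands, CCR4, read 56.9 to 101 in high, 58.4 to 89.0 in low and 60.3 to 93.8 in no Myc.

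Among the receptors, CCR2 had the largest differences of the 10 members from no Myc and fell in both groups. It read 208, 38.3, 59.0 and 161 on the high Myc arrays, 39.6, 34.7 and 36.2 on the low Myc arrays, and 1252 and 998 on the no Myc arrays. Both no Myc arrays were far above every other array. CCR2 was 12.0-fold lower in high than in no Myc (-3.58 ± 0.60, adjusted p = 0.00232) and fell by 4.93 ± 0.63 on the log2 scale in low against no Myc (adjusted p = 0.00109). The low Myc readings were near the lower quartile of the arrays, so no fold is given for that difference. Both calls held in all 9 fits that left out an array. Between high and low Myc the difference was 1.34 ± 0.53 (adjusted p = 0.229), with high Myc replicate 2 among the low Myc values. Without that array CCR2 was higher in high than in low Myc by 1.77 ± 0.40 on the log2 scale (adjusted p = 0.0418). It was then 8.90-fold lower in high than in no Myc (-3.15 ± 0.45, adjusted p = 0.00187). The high against low call was made in no other fit that left out 1 array, and with the library labelled no Myc replicate 1 out as well it was lost (1.77, adjusted p = 0.0745). A second CCR2 probe set read 42.2 to 90.6 in high, 40.8 to 52.7 in low and 280.5 to 436 in no Myc. It fell too, by 2.58 ± 0.30 in high against no Myc (adjusted p = 0.00086 over all 54675 probe sets) and by 2.92 ± 0.32 in low against no Myc (0.00119). The ligand CCL2, which acts on CCR2, read 39.1 to 782 in high, 34.6 to 142 in low and 39.8 to 47.7 in no Myc.

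CCR6, the receptor of CCL20, also fell in both groups. It read 32.03, 27.4, 31.4 and 31.2 on the high Myc arrays, 22.1, 31.1 and 22.2 on the low Myc arrays, and 200.2 and 128 on the no Myc arrays. The high and low Myc arrays overlapped each other at the dim end of the array, and both no Myc arrays were well above them. CCR6 fell by 2.40 ± 0.20 on the log2 scale in high against no Myc (adjusted p = 0.000137) and fell by 2.69 ± 0.21 in low against no Myc (adjusted p = 0.000307). The group means behind these differences were 4.93 in high and 4.63 in low Myc on the log2 scale, near the lower quartile of the arrays, so a fold would not be exact. Both calls held in all 9 fits that left out an array, and high and low Myc did not differ beyond their spread (0.29, 95% interval -0.10 to 0.69). CCL20 was thus highest in low Myc arrays and its receptor in no Myc arrays.

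CCR7, the receptor for CCL19 and CCL21 that leads cells to the T zone, was brightest in low Myc and very uneven in high Myc. It read 97.4, 3494, 435 and 214 on the high Myc arrays, 4766, 3144 and 4887 on the low Myc arrays, and 1203 and 1351 on the no Myc arrays. High Myc replicate 2 lay among the low Myc arrays, while the other 3 high Myc arrays were below both no Myc arrays. Low and no Myc did not overlap. In the fit of all 9 arrays no comparison was called. The high against low difference was -3.31 ± 0.996 (adjusted p = 0.114), the high against no difference was -1.59 ± 1.13 (0.439) and the low against no difference was 1.71 ± 1.19 (0.453). Fitted on the low and no Myc arrays alone, the low against no difference was called (1.71 ± 0.22, adjusted p = 0.00987). Without high Myc replicate 2, CCR7 was 20.1-fold lower in high than in low Myc (-4.33 ± 0.47, adjusted p = 0.00157) and 6.11-fold lower in high than in no Myc (-2.61 ± 0.52, adjusted p = 0.00826). The low against no difference of 1.71 then had an adjusted p of 0.0528 and was not called. With the library labelled no Myc replicate 1 left out as well, the high against low call held (adjusted p = 0.00561) and the high against no call was lost (-2.70, 0.0553). CCL19 read 28.8 to 36.9 in all 3 groups, and CCL21 read 95.7 to 130.4.

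CXCR5, the receptor that guides B cells to follicles, was measured by 2 probe sets that disagreed in size. The set with the higher mean over all arrays read 124, 188, 168 and 147 on the high Myc arrays, 188, 271 and 188 on the low Myc arrays, and 196 and 230.4 on the no Myc arrays. It was called in no comparison, with differences of -0.46 in high against no Myc (adjusted p = 0.166), -0.46 in high against low Myc (0.228) and near 0 in low against no Myc (95% interval -0.49 to 0.48). The second set read 82.0, 92.4, 97.3 and 115 on the high Myc arrays, 258, 367 and 148 on the low Myc arrays, and 361 and 352 on the no Myc arrays. On that set high Myc was below both other groups on every array. Over all 54675 probe sets it fell by 1.89 ± 0.30 in high against no Myc (adjusted p = 0.00326), and its high against low difference of -1.33 ± 0.27 did not pass (adjusted p = 0.053). The median of both sets gave -1.18 for high against no Myc, with an adjusted p of 0.00548.

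CXCR4, the receptor of CXCL12, was called in no comparison. It read 979, 1525, 1806 and 725 on the high Myc arrays, 1611, 1632 and 1479 on the low Myc arrays, and 877 and 1301 on the no Myc arrays. The high Myc group spanned the low Myc group and overlapped the no Myc group. The differences were 0.15 in high against no Myc (95% interval -0.61 to 0.91), 0.56 in low against no Myc (-0.24 to 1.36) and -0.41 in high against low Myc (-1.08 to 0.26). The 2 other CXCR4 probe sets read 504 to 1066 in high, 939 to 1178 in low and 533 to 863 in no Myc, and they were called in no comparison.

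ACKR3, the scavenging receptor for CXCL12, was bright on low Myc arrays and on 1 high Myc array. The probe set with the highest mean read 31.1, 639.9, 44.4 and 28.3 on the high Myc arrays, 796, 649 and 1068 on the low Myc arrays, and 43.7 and 41.3 on the no Myc arrays. High Myc replicate 2 nearly reached the low Myc arrays, and all other high and no Myc arrays were dim. ACKR3 was 19.3-fold higher in low than in no Myc (4.27 ± 1.15, adjusted p = 0.029). The dim readings lie near the lower quartile of the arrays, so the folds of ACKR3 are not exact. In high against low Myc the difference of -3.54 ± 0.96 was not called with all arrays (adjusted p = 0.0847). It was called with array weights (-3.61, adjusted p = 0.0449) and with the median of probe sets (-0.75, 0.0256). Without high Myc replicate 2 it was 24.2-fold lower in high than in low Myc (-4.59 ± 0.22, adjusted p = 3.24e-05) and the high against no difference was -0.32, against 0.74 with all arrays, neither called. The low against no call was lost in 5 of the 9 fits that left out an array, namely without any 1 of the low Myc arrays or of the no Myc arrays (adjusted p 0.0574 to 0.145). A second ACKR3 probe set, read at 40.6 to 48.2 in high, 58.7 to 80.3 in low and 40.0 to 40.2 in no Myc, moved the same way. It was higher by 0.82 ± 0.14 in low against no Myc (adjusted p = 0.00609) and lower in high against low Myc (-0.71 ± 0.12, adjusted p = 0.0299). The remaining set read 36.5 to 46.4 on all arrays.

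**Figure D2:**
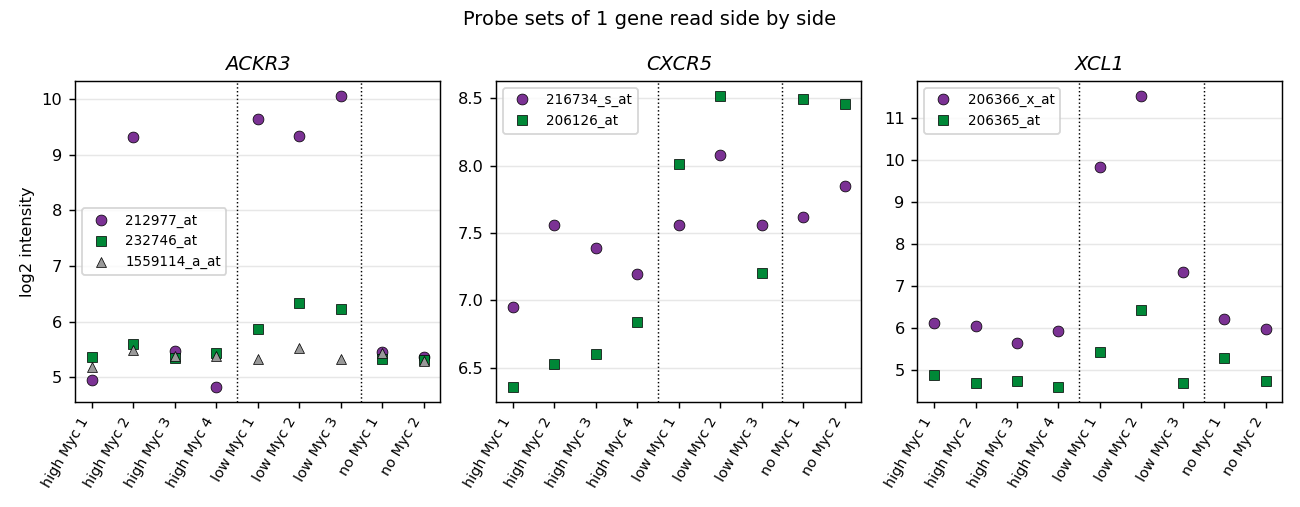
Log2 intensity (vertical axis) of each probe set of ACKR3, CXCR5 and XCL1 on the 9 arrays, in a panel per gene, with high Myc arrays on the left, low Myc in the middle and no Myc on the right. Points are single arrays, and colours and shapes tell the probe sets of a gene apart. The sets of a gene differ in how far they move, as for ACKR3, where 1 set spans 28.3 to 1068 in intensity and another 36.5 to 46.4.

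**Figure D3:**
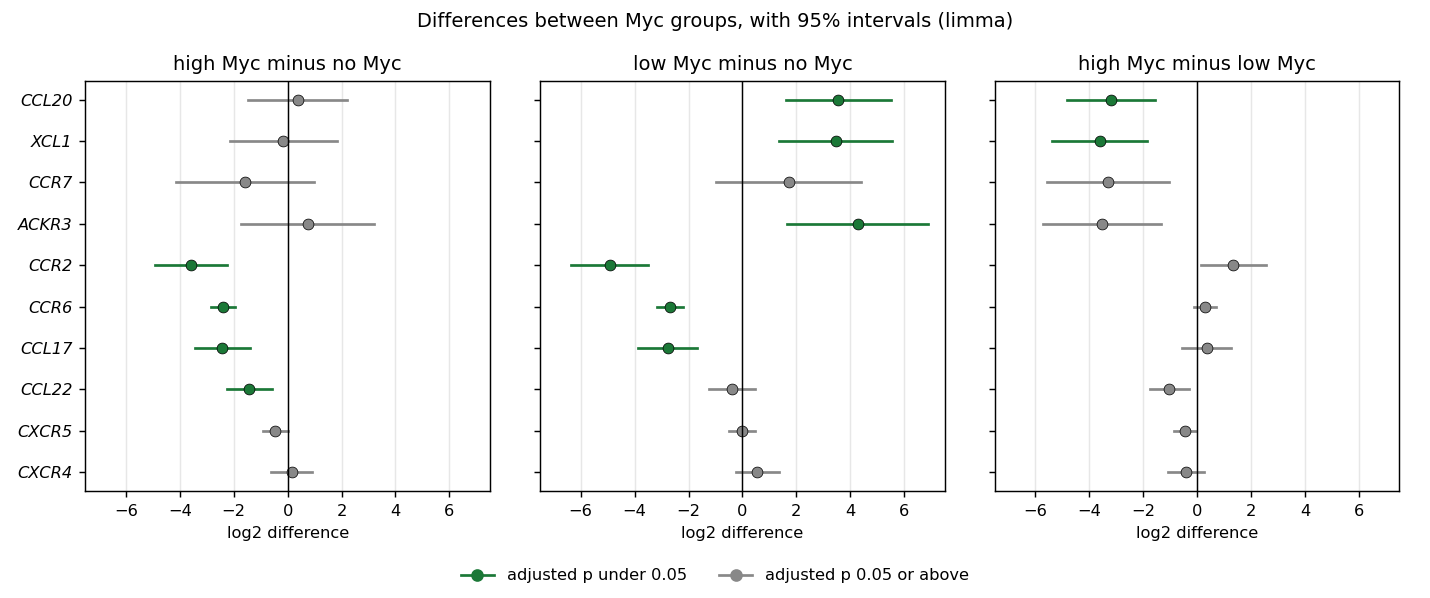
Log2 difference of each member (horizontal axis) with its 95% interval from limma, for high against no Myc, low against no Myc and high against low Myc. Green marks an adjusted p under 0.05. CCR2, CCR6 and CCL17 lie left of 0 in both comparisons with no Myc, and CCL20, XCL1 and ACKR3 lie right of 0 in low against no Myc.

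Without high Myc replicate 2, 5 members were called between high and low Myc in place of 2. ACKR3, CCR7, CCL20 and XCL1 were lower and CCR2 was higher in high Myc. The background in that fit was 6.09% of all genes in either direction, against 3.60% with all arrays. That array was singled out partly by the values of these members, so the added calls are not independent of that choice. Without each of 6 other arrays (high Myc 1, 3 or 4, low Myc 1, the library labelled no Myc 1, or no Myc 2) no member was called between high and low Myc, and without low Myc 2 only 1 was. In high against no Myc, 5 members were called lower without high Myc replicate 2 and 2 without no Myc replicate 2, where 21.5% and 16.8% of all genes were called in either direction, against 23.2% with all arrays. In low against no Myc, none was called higher without low Myc replicate 1, where 15.2% of all genes were called, against 19.8% with all arrays. The 3 lower calls held in every such fit that kept both no Myc arrays. Over all 9 fits that left out an array, those differences were -5.09 to -4.76 for CCR2, -3.01 to -2.37 for CCR6 and -3.21 to -2.34 for CCL17. For the 3 higher members they were 3.04 to 4.16 (CCL20), 2.48 to 4.58 (XCL1) and 4.08 to 4.44 (ACKR3).

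**Figure D4:**
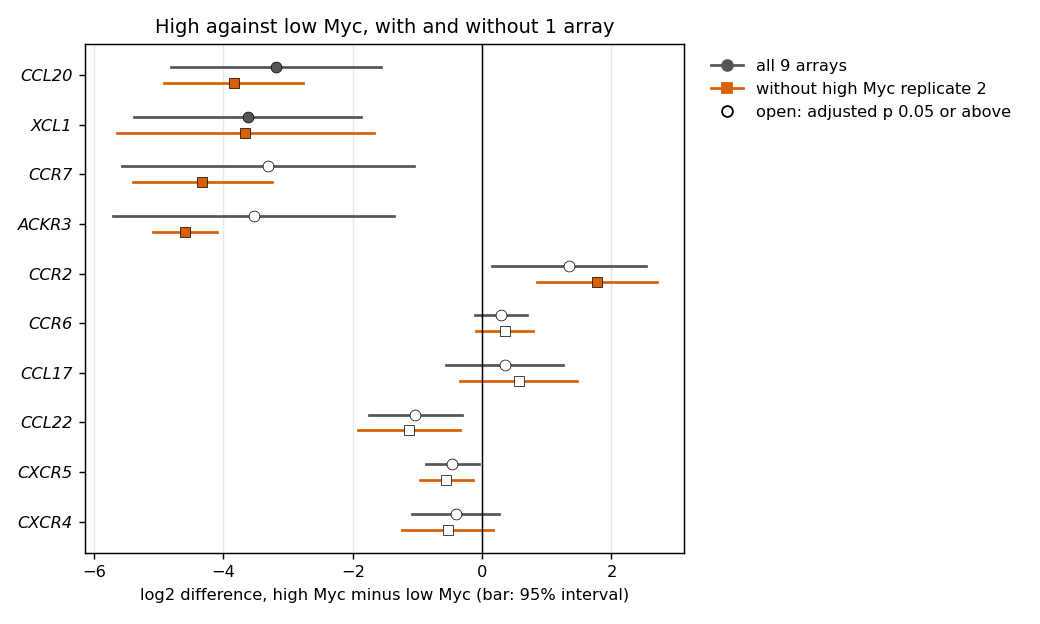
Log2 difference between high and low Myc with 95% intervals from limma for the 10 members, with all 9 arrays (grey) and without high Myc replicate 2 (orange); open symbols were not called. ACKR3 stands at -4.59 without that array, against -3.54 with it, and CCR7 at -4.33, against -3.31.

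Of the 56 other ligands and receptors listed, 49 were measured, and most moved little. Of these 49, 36 ranged over less than 1 on the log2 scale across the 9 arrays. In high against no Myc 2 were lower (4.08%), and in low against no Myc 1 was higher and 2 were lower (6.12%). In high against low Myc 1 was lower (2.04%). Over all genes 23.2%, 19.8% and 3.60% were called in these comparisons in either direction. CX3CR1, the receptor of fractalkine, read 43.0 to 89.2 in high, 37.3 to 52.0 in low and 443 to 585 in no Myc, the same order as CCR2. It was 8.87-fold lower in high than in no Myc (-3.15 ± 0.28, adjusted p = 0.000165) and 12.2-fold lower in low than in no Myc (-3.60 ± 0.30, adjusted p = 0.00032), and both calls held in all 9 fits that left out an array. CCL5 read 365, 799, 367 and 356 on the high Myc arrays, 1335, 1175 and 999.6 on the low Myc arrays, and 397 and 503 on the no Myc arrays. It was 2.60-fold higher in low than in no Myc (1.38 ± 0.33, adjusted p = 0.0188) and 2.63-fold lower in high than in low Myc (-1.39 ± 0.28, adjusted p = 0.034). The first call was lost without low Myc replicate 1 (adjusted p = 0.062), the library labelled no Myc replicate 1 (0.15) or no Myc replicate 2 (0.0578), and the second held only without high Myc replicate 2. Both were lost with the median of probe sets (0.114 and 0.127). CCR1 was called lower in both comparisons with no Myc (-1.10, adjusted p = 0.0468, and -1.19, 0.0463), with 66.0 to 128 in high and 70.5 to 84.8 in low Myc, 265 on the library labelled no Myc replicate 1 and 120.3 on no Myc replicate 2. With the library labelled no Myc replicate 1 left out, the differences were -0.53 (0.459) and -0.62 (0.392). The CCR1 call held in only 2 of the 9 fits that left out an array in high against no Myc (without high Myc replicate 1 or no Myc replicate 2) and in 3 in low against no Myc (those and without high Myc replicate 2). Both calls were lost with medians centred, with only the 2 groups fitted and with every probe set fitted (adjusted p 0.050022 to 0.0894).

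Signalling genes downstream of the receptors that were called were mostly lower. Of 31 measured, 14 were lower and 1 higher in high against no Myc, 8 were lower and 2 higher in low against no Myc, and 4 were lower in high against low Myc. Over all genes 9.0% were lower and 14.2% higher in high against no Myc, 8.55% and 11.3% in low against no Myc, and 1.27% lower in high against low Myc. The median log2 difference was -0.64, -0.32 and -0.21. RAC2, which acts in the migration of blood cells, fell by 1.31 ± 0.15 in high against no Myc (adjusted p = 0.000436) and PREX1, which activates Rac, fell by 1.28 ± 0.18 (adjusted p = 0.00103). GRK5, a kinase that shuts receptors off, fell by 3.37 ± 0.59 on the log2 scale in low against no Myc (adjusted p = 0.00426), and DOCK8, which activates Cdc42, fell by 1.12 ± 0.16 (adjusted p = 0.00166). With the library labelled no Myc replicate 1 left out, only 4 of the 31 were lower in high against no Myc and 3 in low against no Myc, while the share of all genes called in either direction fell to 13.7% and 9.38%, against 23.2% and 19.8% with all arrays. In high against low Myc, 5 were lower and 2 higher once high Myc replicate 2 was out, and at most 1 was lower without any 1 of 7 arrays (high Myc 1, 3 or 4, low Myc 1 or 2, or either array labelled no Myc).

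Of the 9 RGS proteins, which speed the end of G-protein signals, RGS16 was higher against no Myc in both groups (1.39 ± 0.26, adjusted p = 0.00411, in high and 1.31 ± 0.27, 0.00907, in low Myc). RGS19 was lower in both (-1.26 ± 0.19, adjusted p = 0.00151, in high and -1.26 ± 0.20, 0.0028, in low Myc). In high against no Myc 3 of 9 were lower and 1 higher, where 9.0% and 14.2% of all genes were. In low against no Myc 2 were lower and 2 higher, against 8.55% and 11.3% of all genes. In high against low Myc 2 were lower, against 1.27% of all genes. Without either 1 of the arrays labelled no Myc, only 1 was lower in high against no Myc. In low against no Myc none was higher once the library labelled no Myc replicate 1 was out, and 1 was without low Myc replicates 1 or 3 or no Myc replicate 2. The 2 lower calls in high against low Myc held only without high Myc replicate 2. They numbered 1 without low Myc replicates 2 or 3 and 0 without any 1 of the other 6 arrays. Of 10 receptors for lipids and other positioning cues, P2RY8, which confines B cells to germinal centres, was 3.77-fold lower in high than in no Myc (-1.91 ± 0.36, adjusted p = 0.00437) and 3.94-fold lower in low than in no Myc (-1.98 ± 0.38, 0.00649). In all, 2 were lower in high and 3 in low against no Myc, and none in high against low Myc. The shares of all genes with all arrays were those given for the RGS proteins. Once high Myc replicate 2 was out, 3 of the 10 were lower in high against low Myc, and in low against no Myc 2 were higher and 4 lower. That fit called 6.09% and 20.6% of all genes in these comparisons in either direction, against 3.60% and 19.8% with all arrays. With either array labelled no Myc left out, fewer of all genes were called in every comparison, so such losses are not particular to these lists. With the library labelled no Myc replicate 1 left out, none of the 10 was lower in low against no Myc (P2RY8 -1.99, adjusted p = 0.0528).

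Of 15 NF-kappaB subunits and targets, 8 were lower and none higher in high against no Myc, 1 was lower in low against no Myc and 2 were lower in high against low Myc, where 9.0%, 8.55% and 1.27% of all genes were lower. The median log2 differences were -1.15, -0.10 and -0.99. NFKBIA, the inhibitor induced by the pathway, fell by 1.41 ± 0.30 in high against no Myc (adjusted p = 0.00829), and the subunit REL was lower in high than in low Myc (-1.01 ± 0.12, adjusted p = 0.00495). Without high Myc replicate 2, 13 of the 15 were lower in high against no Myc and 12 in high against low Myc, in fits that called 21.5% and 6.09% of all genes in either direction. With the library labelled no Myc replicate 1 left out, only 2 were lower in high against no Myc (13.7% of all genes called), and without no Myc replicate 2 only 4 (16.8%). In high against low Myc only 1 was lower without any 1 of the other high Myc arrays, low Myc replicates 1 or 2, or either array labelled no Myc.

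Markers of other cell types were read beside these results. Over all genes 9.0% were lower and 14.2% higher in high against no Myc. In low against no Myc these shares were 8.55% and 11.3%, and in high against low Myc 1.27% and 2.33%. These shares are with all arrays. Without high Myc replicate 2, 6.09% of all genes were called in high against low Myc and 20.6% in low against no Myc, in either direction. With all arrays these were 3.60% and 19.8%. Leaving out either array labelled no Myc lowered the number of all genes called in every comparison. Of 9 B cell markers, 7 were lower and none higher in high against no Myc, 4 were lower and 1 (CR2) higher in low against no Myc, and 2 were lower in high against low Myc (3 without high Myc replicate 2 and 1 without any 1 of the other arrays). Leaving out the library labelled no Myc replicate 1 gave 1 lower in high and 2 lower in low against no Myc. Their summed intensities were 19715 to 26744 in high, 24189 to 26754 in low and 39786 to 48248 in no Myc. Of 12 myeloid and dendritic markers, 4 were lower in high against no Myc (LYZ, CD1C, ITGAX and CD209) and 2 in low against no Myc (LYZ and CD1C), and 2 were lower in high against no Myc without no Myc replicate 2. They had sums of 664 to 805 in high, 753 to 884 in low and 1946 to 2823 in no Myc, where CD1C alone read 916 to 1428. The defining monocyte marker CD14 read 35.0 to 49.6 in all 3 groups, and CSF1R read 36.2 to 57.5. CCR2, CCR6, CX3CR1 and CCL17 move with LYZ and CD1C, but most of the 12 markers did not. In high against no Myc 8 of the 12 were not called (median log2 difference of the list -0.03), and 10 in low against no Myc (-0.11). All arrays are labelled P493-6, and a part of other cells was not tested. Of 18 T and NK markers none was called in any comparison, with sums of 1793 to 2178 in high, 1807 to 2107 in low and 2073 to 2260 in no Myc in these fits of all arrays. In the fit without high Myc replicate 2, 1 was higher and 1 lower in low against no Myc and 1 was lower in high against low Myc. Of 6 plasma cell markers, XBP1 was higher in high against no Myc (0.74, adjusted p = 0.0415) and none was called elsewhere, and XBP1 was not called without any 1 of 7 arrays (the high Myc arrays, low Myc replicate 1 and both arrays labelled no Myc). In bulk RNA, fewer cells of a type and less RNA per cell cannot be told apart.

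Genes whose pattern was most like that of a called member were found by the root mean square difference of centred log2 values over the 9 arrays, among 5747 genes that ranged over at least 1 on the log2 scale. CCL20 was closest to ZC3H12C (0.261), CR2 (0.468) and OTP (0.481). CCL22 was closest to RFTN1 (0.161), CTSH (0.204) and RXRA (0.23). XCL1 had no close match, with CD93 at 0.618 and TCEAL9 at 0.634 and FNBP1L at 0.771. CCR2 was closest to CD72 (0.158), a B cell coreceptor, then SAMD9L (0.479) and GAPT (0.535). CCR6 was closest to CD1C (0.238), PARP14 (0.245) and RAP1GAP2 (0.261). ACKR3 was closest to ADAMDEC1 (0.335), ATP1B1 (0.462) and IL18R1 (0.554), and CCL17 to IL10RA (0.412), ZDHHC21 (0.445) and LINC00926 (0.493).

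**Figure D5:**
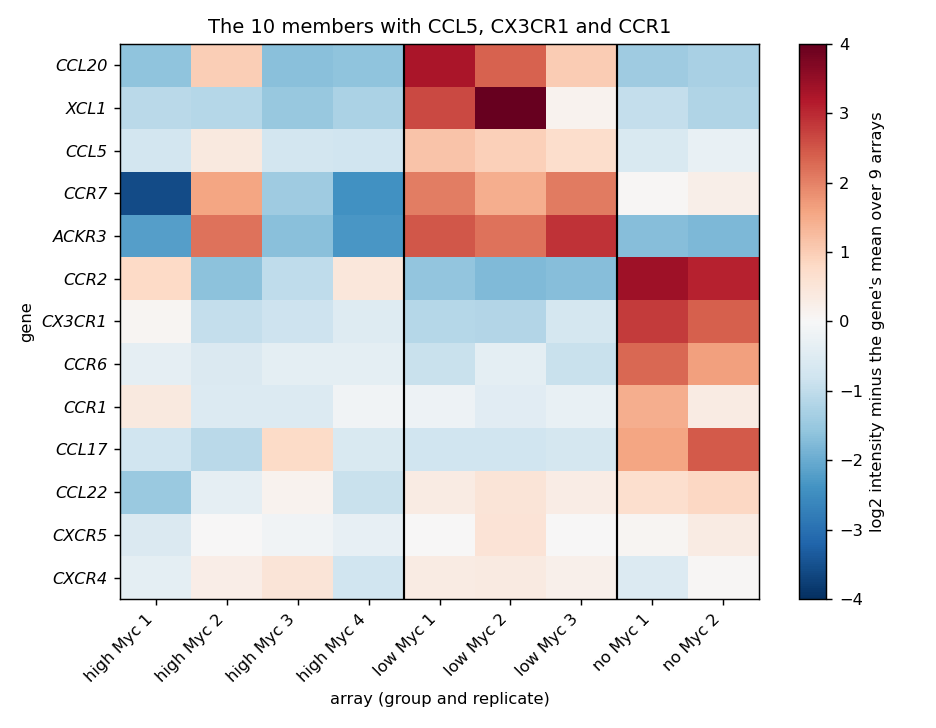
Log2 intensity minus each gene's mean over the 9 arrays (colour scale) of the 10 members with CCL5, CX3CR1 and CCR1 on each array, with high Myc arrays on the left, low Myc in the middle and no Myc on the right. High Myc replicate 2 resembles the low Myc arrays at CCR7, ACKR3 and CCR2.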

How the data were processed

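The authors summarised the arrays by RMA, per the submitters' processing notes; its version and the genome build are not given in the sources used here. The deposited values are intensities on a linear scale, and their log2 was taken. RMA makes array distributions alike, so differences are relative to the other genes on an array. Single-symbol probe sets took names from GEO's platform table with symbols updated through Entrez identifiers, and the probe set with the highest mean log2 stood for a gene. A probe set annotated to both XCL1 and XCL2 was not used.

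The 9 arrays were fitted in 1 model (limma 3.58.1 in R 4.3.3, lmFit and eBayes, 6 residual degrees of freedom), without the replicate number as a block. Each comparison was adjusted by Benjamini-Hochberg over 19775 genes and called under 0.05. In their deviations from the group means, replicate 1 arrays correlated at 0.25 to 0.47, replicate 2 arrays at 0.03 to 0.10 and replicate 3 arrays at -0.31. As these values differ between numbers, the numbers were not taken to pair arrays. Whether the replicate 1 arrays share something else was not tested. The fit was tested on 10 simulated sets with 200 changed genes. The members and lists were chosen with earlier results of these data known. Named genes were all members, MYC, up to 4 called genes per list and comparison by size, and the 3 genes most like each called member. CCR4, CCL2, CCL19, CCL21, CD14 and CSF1R were added as known partners or defining markers, outside that rule. Alternatives were other scalings, a filter at a mean log2 of 5, the median of or every probe set, another prior, weighted arrays, fits of the compared groups alone, the replicate block, a threshold of 0.01 and leaving out arrays.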

Additional observations from a re-analysis of the deposited data

Results flagged for a closer look

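Among 56 gene readings tested in the high Myc group of 4 arrays, 9 had 1 array far from the others, with a gap to the nearest of them over 0.829 of the group's range on the log2 scale. That limit flags about 1 in 20 groups of independent readings. The 56 readings share the same 4 arrays, and they include several probe sets of some genes and genes named because they were called. Their count can therefore not be set against that rate. In 8 of the 9 the array was high Myc replicate 2. Among the members it read 639.9 for ACKR3, 208 for CCL20 and 27.4 for CCR6. It also read 799 for CCL5, 148 for CR2, 122 for GRK5, 626 for PTK2B and 968 for REL. The other was GRK3, at 249.9 on high Myc replicate 4.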

How the results depend on the processing

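Calls of CCR2 and CCR6 against no Myc, and of CCL17 in low against no Myc, held under all alternatives at 0.05. Members called in high against no Myc numbered 4, and 2 to 5 with an array left out. In low against no Myc they numbered 6, 3 at a threshold of 0.01 and 3 to 6 with an array left out. In high against low Myc they numbered 2, 1 with medians centred (CCL20 lost, adjusted p = 0.0555), and 1 with the median of probe sets, where CCL20 (0.0569) and XCL1 (0.0772) were lost and ACKR3 (-0.75, 0.0256) was gained. They numbered 0 with only the 2 groups, every probe set or the 0.01 threshold, and 0 to 5 with an array left out. Other ligands and receptors called in high against no Myc numbered 2, and 1 with medians centred, only the 2 groups, both doubted arrays out (high Myc replicate 2 and the library labelled no Myc replicate 1), every probe set or 0.01 (1 to 2 with an array left out). In low against no Myc they numbered 3, 5 with array weights, 1 at 0.01 and 1 to 5 with an array left out. In high against low Myc they numbered 1, 3 with array weights, 2 with both doubted arrays out, 0 with the median of probe sets, only the 2 groups, every probe set or 0.01, and 0 to 2 with an array left out. With the replicate number as a block, high against low Myc had 0 members and 0 others called, low against no Myc had ACKR3 at an adjusted p of 0.0562, XCL1 in high against no Myc was 0.47, CXCR5 in low against no Myc 0.020, and all genes called numbered 4023, 3474 and 154, against 4584, 3919 and 712.

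Signs turned only for uncalled differences. In high against no Myc, CCL20 was -0.28 to 0.60 and ACKR3 -0.32 to 1.18 with an array left out (the lowest without high Myc replicate 2), and -0.35 and -0.28 with both doubted arrays out. CXCR4 was -0.040 with quantile normalization, -0.26 with both out and -0.14 to 0.43 with an array left out, being -0.057 without high Myc replicate 3 and lowest with the library labelled no Myc replicate 1 out. In low against no Myc, CXCR5 was 0.015 with quantile normalization, 0.047 with medians centred and -0.18 to 0.11 with an array left out, and MYC was -0.50 to 2.25, the lowest without no Myc replicate 2. CCL17 in high against low Myc was -0.045 to 0.56, the lowest without high Myc replicate 3. Where the setting's own construction does not show it, the cause was not tested. The number of arrays limits precision, and signal near background limits the folds of CCR2, CCR6, CCL20, ACKR3 and CX3CR1.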

Other observations

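Of the 49 other ligands and receptors, 8 ranged over at least 2 on the log2 scale, and 3 ligands among them were highest on high Myc replicate 2. CXCL9, an interferon-induced ligand of CXCR3, read 3684 on that array and 82.3 to 100.4 on the other high Myc arrays, with 386 to 482 in low and 121 to 128 in no Myc. CXCL10, another such ligand, read 4782 there and 266 to 1370 on the other high Myc arrays, with 1058 to 4068 in low and 581 to 846 in no Myc. CCL2 read 782 there and 39.1 to 44.0 on the others. CXCL8 and CCR10 were highest on low Myc replicate 2, at 598 and 836, and CCL4 on low Myc replicate 1, at 927. With all arrays in the fit, none of these 6 was called in any comparison. They were picked for their range after their values were seen.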
